A study of Mus musculus with 21 samples.

Results

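The cadherins and protocadherins of this mouse array were followed across 21 arrays of medulloblastoma cells that had been sorted for the surface carbohydrate CD15. Every probe set was taken whose gene symbol in the platform annotation begins with Cdh and a digit, apart from the endothelial cadherin Cdh5, or with Pcdh. This gave 105 of 45101 probe sets. They named 55 single genes, and 6 further probe sets listed several genes of the alpha protocadherin cluster at once. After probe sets of low mean signal had been left out, 34 of the 55 genes remained among 12367 genes tested.

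Cadherins are calcium-dependent adhesion proteins that span the cell membrane and bind cadherins of the neighbouring cell. Classical cadherins of type I and type II are tied to the actin cytoskeleton through the catenins, and N-cadherin (Cdh2) is the classical cadherin typical of neural tissue. Protocadherins lack the catenin-binding tail: the delta protocadherins act singly in axon growth and cell sorting, whereas the alpha, beta and gamma clusters are gene arrays from which each neuron expresses its own choice of isoforms, used in self-recognition of neurites. In the cerebellum, granule neuron precursors, the cells from which Hedgehog-driven medulloblastoma arises, change their adhesion proteins as they stop dividing and migrate inwards.

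All tumours were medulloblastomas of Patched mice, in which the Hedgehog receptor gene Ptch1 is mutated. There were 4 groups. Tumours titled conventional gave 6 arrays of the CD15 positive fraction and 6 of the CD15 negative one. Tumours titled Math1-GFP gave 4 positive and 5 negative arrays; Math1-GFP is the name of a reporter mouse in which the enhancer of Math1 (Atoh1) drives green fluorescent protein. The labels give neither ages nor strains, nor the number of animals behind an array, nor whether the reporter was used in the sort. The sample descriptions of the Math1-GFP arrays call their tumours conventional as well; the titles were followed. No label ties an array to an animal of its own, so each p-value reflects array-to-array spread that may be in part technical.

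The deposited signals are linear intensities and carry no detection calls. The median signal of an array lay between 22.1 and 32.7, and the limited number of arrays sets the precision. The granule lineage gene Atoh1 measured 343 to 2370 and Zic1 6539 to 14630 over the 21 arrays, so that markers of the labelled tumour were present in every array. In some fits, conventional arrays 2 to 5 were split from the unnumbered pair and number 6, a split called the array set below. No label names this split as a batch. Summed astrocyte marker signals did not separate its sides, since CD15 negative array 5 had 1274 and number 6 had 1725. Some Math1-GFP arrays stood apart. Math1-GFP arrays 1 and 2 had summed oligodendrocyte lineage marker signals of 1936 and 1388, against at least 2525 in the other Math1-GFP arrays. Array 1, a CD15 positive one, also had the highest astrocyte (5010), microglia and macrophage (1235) and mural and fibroblast (1002) sums of that model. The other Math1-GFP arrays reached at most 2488, 405.9 and 450.6. Fewer cells of a type and less RNA per cell cannot be told apart in such bulk samples.

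Differences are given as log2 fold changes of signal + 32 with their standard errors (SE) from a limma fit of all 4 groups, and a change was called where the Benjamini-Hochberg adjusted p over all 12367 genes was under 0.05. With 32 added, dim genes show smaller changes than their raw signals would. The titles number conventional arrays 2 to 6 in each fraction, but do not state that arrays of the same number share a tumour. They were taken as pairs because their deviations from the group means correlated. A fit with the pair as a replicate block is quoted where it changes a call. No label pairs the unnumbered conventional arrays, one in each fraction; they are counted below as the sixth of 6 pairs because their deviations correlated as those of numbered pairs did, and the block was also fitted without them. The signal of one gene was not set against that of another, since probe sets differ in response.

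The 21 genes not tested never exceeded a signal of 39.0 on any array. They were Cdh1, Cdh3, Cdh6, Cdh9, Cdh16, Cdh17, Cdh18, Cdh19, Cdh23, Cdh26, Pcdh1, Pcdh11x, Pcdh12, Pcdh15 and the beta cluster genes Pcdhb1, Pcdhb2, Pcdhb6, Pcdhb8, Pcdhb13, Pcdhb14 and Pcdhb18. Cdh1 encodes E-cadherin, the epithelial cadherin, and its highest signal was 26.3. Pcdh1, a delta protocadherin, reached 16.1. The highest of the 21, Cdh16 at 39.0 on one array, was above the highest array median of 32.7. The table gives no means of telling such signals from background.

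In conventional tumours, 3 protocadherins were lower in CD15 positive than in CD15 negative cells and no member was called higher. They were the beta cluster genes Pcdhb7 and Pcdhb20 and the delta protocadherin Pcdh8. Over all genes, 5.09% were called lower, 3.05% higher and 8.13% in either direction.

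Pcdhb7 had the strongest evidence. Its signal was 40.8 to 69.2 (median 51.1) in the 6 CD15 positive arrays and 54.9 to 193.9 (median 148.8) in the 6 CD15 negative arrays. A single CD15 negative array, number 6, lay within the CD15 positive range, and the CD15 positive array was the lower one in 6 of 6 pairs. The log2 fold change was -0.94 ± 0.20 (limma, adjusted p = 0.0065). Within numbers 2 to 5 it was -1.12 (adjusted p = 0.0067), and within the unnumbered pair and number 6 it was -0.56 (adjusted p = 0.69), where 2 arrays stood in each fraction.

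Pcdhb20 measured 40.4 to 123.6 (median 73.6) in CD15 positive and 84.0 to 176.3 (median 122.0) in CD15 negative arrays. The ranges overlapped, and the positive array was the lower one in 6 of 6 pairs. The change of -0.57 ± 0.17 was called (limma, adjusted p = 0.039), but the call was lost under quantile normalization (adjusted p = 0.076) and on leaving out any one of 7 arrays: CD15 negative 2, 3, 4 or 5, or CD15 positive unnumbered, 3 or 4 (adjusted p = 0.059 to 0.11). It was also lost in a fit of the conventional groups alone (adjusted p = 0.086), within numbers 2 to 5 (-0.58, adjusted p = 0.099) and within the unnumbered pair and number 6 (-0.53, adjusted p = 0.72).

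Pcdh8, a delta protocadherin with known roles at synapses and in the movement of cells in the embryo, measured 39.7 to 97.5 (median 68.5) in CD15 positive and 95.0 to 159.2 (median 135.1) in CD15 negative arrays. The groups touched at a single pair, number 3, where the fractions measured 97.5 and 95.0. The change was -0.75 ± 0.20 (limma, adjusted p = 0.023). A second probe set of Pcdh8 gave -0.97 ± 0.22 (adjusted p = 0.011 over 23811 probe sets). The call of the first was lost without CD15 negative array 2 (adjusted p = 0.052) or CD15 positive array 5 (adjusted p = 0.055), with array weights (adjusted p = 0.056) and with a pseudocount of 1 in place of 32 (adjusted p = 0.057). It was lost too within numbers 2 to 5 (-0.69, adjusted p = 0.077) and within the unnumbered pair and number 6 (-0.85, adjusted p = 0.58).

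With the replicate block, 7 members were called in conventional tumours, against 13.8% of all genes. The beta cluster genes Pcdhb3 (-0.53 ± 0.18, adjusted p = 0.077, with the block 0.019), Pcdhb16 (-0.56 ± 0.21, adjusted p = 0.11, with the block 0.014) and Pcdhb17 (-0.67 ± 0.23, adjusted p = 0.087, with the block 0.015) joined the lower members. Pcdh18 was the sole member called higher (0.51 ± 0.36, adjusted p = 0.44, with the block 0.045). With the block on the numbered pairs alone, an alternative chosen after seeing the data, 4 members were called, all lower, against 9.99% of all genes. They were Pcdhb7 (adjusted p = 0.0068), Pcdhb21 (0.021), Pcdhb3 (0.037) and Pcdhb17 (0.043). Pcdh8 (0.055), Pcdhb20 (0.054), Pcdhb16 (0.052) and Pcdh18 (0.13) missed the threshold there.

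**Figure D1:**
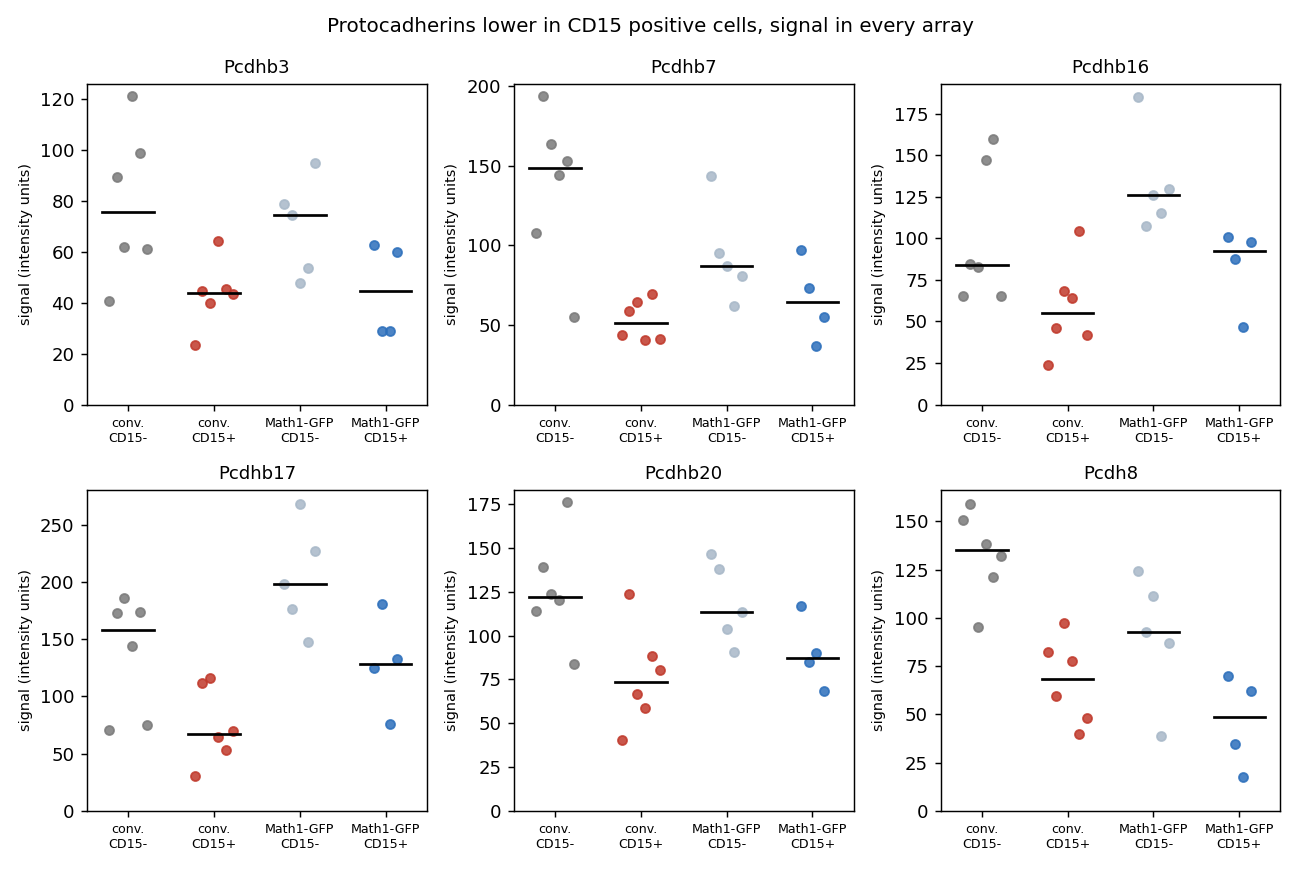
Deposited signal (intensity units, linear axis from 0) of 5 beta cluster genes and Pcdh8; each point is an array and each bar a group median, for CD15 negative and positive cells of conventional (conv.) and Math1-GFP tumours. In conventional tumours, the CD15 positive medians are below the CD15 negative medians in all panels, as for Pcdhb7 at 51.1 against 148.8, and CD15 negative array 6 of Pcdhb7 at 54.9 lies among the positive arrays.

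Most beta cluster genes, called or not, had lower estimates in CD15 positive cells. Of the cluster's 22 genes on the array, 15 were tested. In conventional tumours 13 of the 15 had a negative change, with a median of -0.42, against -0.02 over all genes tested. With no filter on low signal, 18 of the 22 were negative and the median was -0.23, against 0.00 over all 18193 genes. The 2 genes without a negative change among those tested were Pcdhb4 (0.01 ± 0.18) and Pcdhb5 (0.10 ± 0.17). Next to Pcdhb7, the most negative was Pcdhb9 (-0.88 ± 0.38, adjusted p = 0.17), at 127.6 to 229.9 (median 152.4) in CD15 positive and 218.6 to 464.5 (median 339.3) in CD15 negative arrays. Its conventional groups overlapped at their edge, and the positive array was the lower one in 6 of 6 pairs. Pcdhb9 was called lower in a fit of the conventional groups alone and without Math1-GFP arrays 1 and 2. Its log2 values had SDs of 0.28 and 0.44 in conventional CD15 positive and negative arrays. In the Math1-GFP arrays, which share the estimate of spread, they were 1.05 and 1.00.

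The genes of the cluster lie in numbered order along the chromosome. Pcdhb7 and Pcdhb20, called in conventional tumours, stand far apart in that order. Between them lay tested genes that were not called, among them Pcdhb10 (-0.26 ± 0.24), Pcdhb11 (-0.13 ± 0.13), Pcdhb12 (-0.52 ± 0.23) and Pcdhb15 (-0.42 ± 0.19). Also between them, and not called without the block, were the larger changes of Pcdhb9 (-0.88 ± 0.38), Pcdhb16 (-0.56 ± 0.21) and Pcdhb17 (-0.67 ± 0.23). The neighbours of Pcdhb20 were not called either: Pcdhb19 (-0.20 ± 0.14), Pcdhb21 (-0.36 ± 0.16) and Pcdhb22 (-0.29 ± 0.18). Beta cluster genes are much alike in sequence, and whether each probe set reads only its own gene was not tested.

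The mean log2 level of the 15 genes on an array was 5.83 to 6.27 in CD15 positive and 6.32 to 6.71 in CD15 negative conventional arrays, which did not overlap. The positive array was lower in each of the 6 pairs, by 0.28 to 0.53. Markers of differentiated neurons moved in the same direction. The mean of 12 neuronal genes was 8.62 to 9.36 in positive and 9.75 to 10.53 in negative conventional arrays, and 10 of these 12 were called lower in CD15 positive cells, with a median change of -1.12, where 5.09% of all genes were lower. Of 9 mitotic genes, 9 were called higher, with a median change of 1.00, where 3.05% of all genes were higher. The part of either in the protocadherin differences was not tested.

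**Figure D2:**
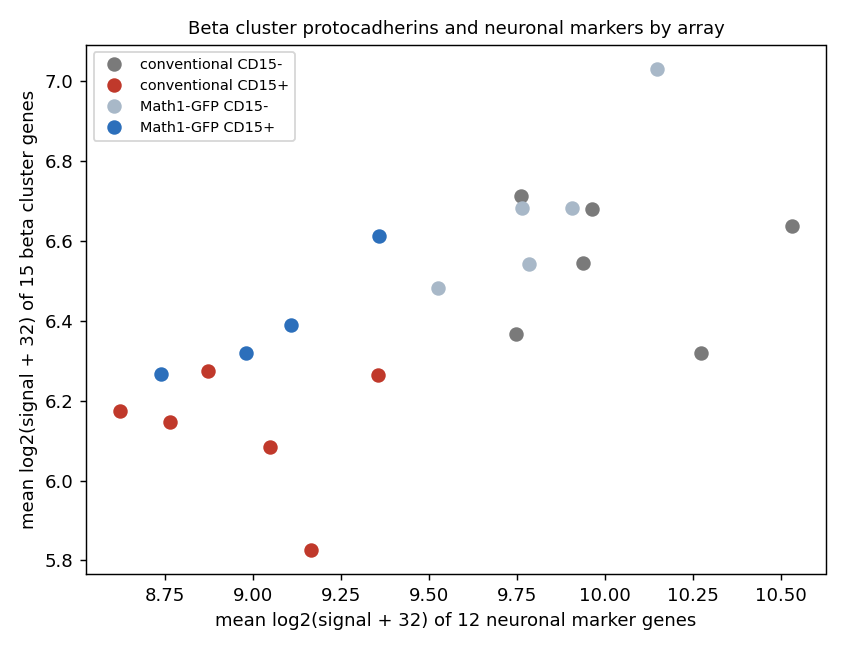
Mean log2(signal + 32) of 15 beta cluster genes (vertical axis) against that of 12 neuronal marker genes (horizontal axis); each point is an array, coloured by group. The conventional CD15 positive arrays lie at 5.83 to 6.27 on the vertical axis and at 8.62 to 9.36 on the horizontal axis, the CD15 negative ones at 6.32 to 6.71 and 9.75 to 10.53.

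The alpha cluster was measured by 6 probe sets that list 9 or 14 of its genes, so that no single alpha isoform can be named. The 3 sets listing 9 genes stayed below the filter. The 3 sets listing 14 were tested in a fit of 23811 probe sets, of which 3.80% were called lower in conventional CD15 positive cells. Set 1420798_s_at measured 54.1 to 318.7 (median 131.9) in CD15 positive and 226.1 to 659.2 (median 396.6) in CD15 negative conventional arrays, a change of -1.33 ± 0.28 (limma, adjusted p = 0.0072). The groups overlapped, since CD15 positive signals reached past the lowest negative one. This was larger in size than the change of any single-gene member.

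Set 1451769_s_at was also lower in CD15 positive cells (-0.77 ± 0.20, adjusted p = 0.023), at 4.22 to 29.5 (median 14.6) against 26.9 to 139.3 (median 36.6). That call was lost without the unnumbered CD15 positive array (adjusted p = 0.056) or CD15 positive array 2 (adjusted p = 0.060). Set 1424341_s_at, at 18.9 to 111.7 (median 43.7) against 67.6 to 185.4 (median 93.2), changed by -0.72 ± 0.22 and missed the threshold (adjusted p = 0.064, with the replicate block 0.0027). The alpha sets read overlapping groups of transcripts and are not independent of one another. The one gamma cluster gene tested, Pcdhgc4, showed -0.25 ± 0.17 (adjusted p = 0.43), at 39.2 to 77.5 in positive and 48.1 to 97.3 in negative conventional arrays.

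**Figure D3:**
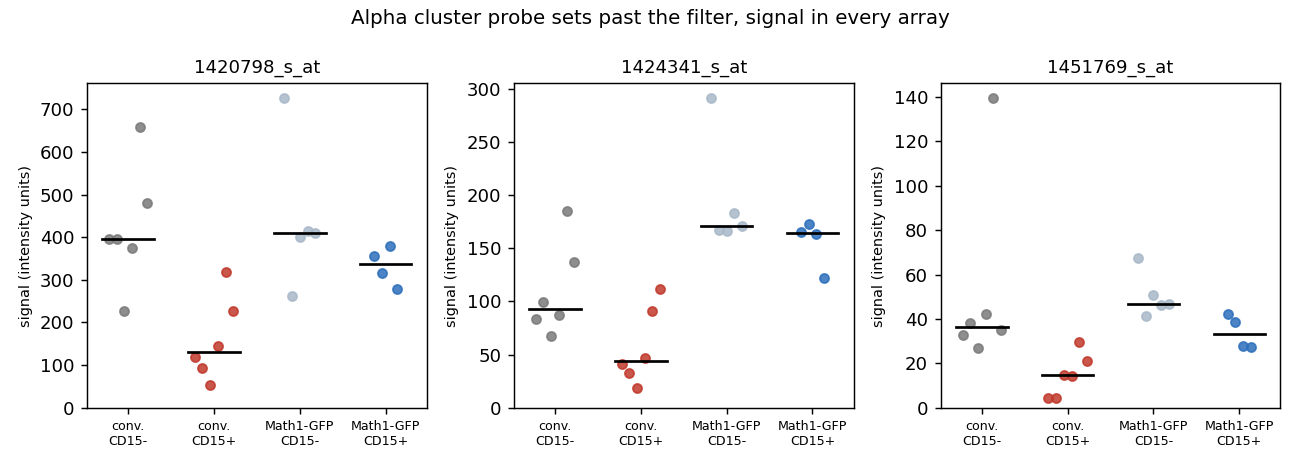
Deposited signal (intensity units, linear axis from 0) of the 3 alpha cluster probe sets past the filter, each listing 14 genes; each point is an array and each bar a group median. In set 1420798_s_at the conventional CD15 positive median of 131.9 lies below the CD15 negative median of 396.6, and the Math1-GFP medians are 336.1 and 409.5.

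Of the other delta protocadherins, none was called in conventional tumours in the main fit, which has no block. Pcdh20 measured 13.5 to 37.4 (median 20.7) in CD15 positive and 35.6 to 77.8 (median 48.9) in CD15 negative arrays. Its ranges met only at their edge, the positive array was lower in 6 of 6 pairs, and the change was -0.63 ± 0.21 (adjusted p = 0.067). Pcdh20 was called lower in 7 of 37 alternatives. Among these were a pseudocount of 1, the array set as a block, the conventional groups alone and numbers 2 to 5 alone. Leaving out CD15 positive array 6 or Math1-GFP array 10 also gave a call. Pcdh10, a regulator of axon paths in the forebrain, measured 3.07 to 37.2 (median 8.17) against 16.2 to 77.9 (median 28.0). It was the lower one in 6 of 6 positive arrays, with a change of -0.59 ± 0.23 (adjusted p = 0.14).

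Pcdh18 went the other way. Its conventional signals ran from 70.3 to 385.6 (median 278.1) in CD15 positive and from 39.2 to 324.3 (median 189.7) in CD15 negative arrays, and the array without a number and number 6 were the dimmest in both fractions. The positive array was higher in 5 of 6 pairs. Other probe sets of Pcdh18 gave 0.30 ± 0.22 and 0.16 ± 0.16, neither called. Summed signals of 9 mural and fibroblast markers ran from 260.2 to 1769 in positive and from 281.8 to 4695 in negative conventional arrays, and those of 9 microglia and macrophage markers from 491.7 to 9820 and from 209.1 to 2240; none of these lists had a called gene in this comparison. Their part in the Pcdh18 values was not tested.

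Pcdh9, at 45.7 to 180.9 (median 126.7) against 87.0 to 172.9 (median 135.9), changed by -0.16 ± 0.22, and Pcdh17, at 2.94 to 27.1 (median 14.0) against 0.275 to 58.6 (median 17.3), by -0.19 ± 0.22. Pcdh7 changed by -0.25 ± 0.28. Pcdh19, linked to a form of epilepsy in girls, showed 0.13 ± 0.27, at 9.41 to 72.0 (median 35.1) against 17.1 to 51.1 (median 25.3), and its second probe set showed -0.18 ± 0.22. These genes overlapped widely between fractions.

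No classical cadherin was called between the conventional fractions. N-cadherin (Cdh2) measured 607 to 903 (median 854) in CD15 positive and 809 to 1189 (median 1007) in CD15 negative arrays, a change of -0.28 ± 0.12 (adjusted p = 0.16). Retinal cadherin (Cdh4) measured 194.0 to 332.6 (median 243.3) and 142.6 to 367.4 (median 245.0), a change of 0.11 ± 0.21. A second probe set of Cdh4 gave a change of the opposite sign. Muscle cadherin (Cdh15) was higher in the positive array of 6 of 6 pairs, by 0.04 to 0.87 on the log2 scale. It ran from 23.95 to 228.4 (median 159.9) against 22.4 to 165.8 (median 88.1), so the arrays of a fraction differed more than the fractions did, and the change of 0.51 ± 0.40 was not called (adjusted p = 0.51). As with Pcdh18, its dimmest arrays were the unnumbered pair and number 6.

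Among type II cadherins, Cdh22, a cadherin of the brain, was also higher in the positive array of 6 of 6 conventional pairs, by 0.04 to 0.80. Its signals were 32.1 to 233.9 (median 84.7) and 28.1 to 218.0 (median 66.6), and its change of 0.31 ± 0.34 was not called (adjusted p = 0.66). Cdh8 (10.8 to 99.9 against 18.9 to 51.0) changed by 0.04 ± 0.26 and Cdh11 (19.2 to 268.2 against 31.2 to 298.1), a cadherin of mesenchymal cells, by 0.09 ± 0.46. Second probe sets of Cdh8 and Cdh11 gave changes of the opposite sign. Cdh13, which is held by a lipid anchor and has no cytoplasmic tail, measured 8.66 to 75.2 (median 32.1) against 22.7 to 77.4 (median 56.9), and its probe sets opposed each other (-0.32 ± 0.25, 0.31 ± 0.24 and 0.07 ± 0.18).

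In Math1-GFP tumours no member was called between the CD15 fractions (limma; 4 of 34 had an unadjusted p under 0.05), and 0.0404% of all genes were. Pcdh8 measured 69.7, 34.8, 17.5 and 62.0 in the 4 CD15 positive arrays and 124.3, 92.7, 111.2, 38.6 and 86.9 in the 5 CD15 negative arrays. A single CD15 negative array, number 8, lay among the positive ones. The change was -0.66 ± 0.23 (adjusted p = 0.33).

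Pcdhb16 measured 100.6, 87.5, 46.5 and 97.7 in CD15 positive and 185.0, 107.6, 126.2, 115.5 and 129.6 in CD15 negative Math1-GFP arrays, so the groups did not overlap. Its change was -0.53 ± 0.25 (adjusted p = 0.55). Pcdhb17 measured 124.5, 180.9, 75.7 and 132.8 against 198.2, 176.3, 268.6, 147.5 and 227.1, with overlap (-0.57 ± 0.27, adjusted p = 0.57). Pcdhb7, at 97.2, 73.5, 36.7 and 55.2 against 143.6, 95.3, 87.1, 61.9 and 80.7, changed by -0.37 ± 0.24 (adjusted p = 0.72). The beta cluster had negative changes in 14 of its 15 tested genes here, with a median of -0.23 against 0.00 over all genes. Without the filter 18 of 22 were negative. The mean beta cluster level was 6.27 to 6.61 in positive and 6.48 to 7.03 in negative arrays, which overlapped.

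Cdh22 had the largest change of any member in these tumours. It measured 109.4, 113.6, 80.2 and 133.2 in CD15 positive and 65.8, 42.1, 69.2, 30.0 and 32.01 in CD15 negative arrays. Every positive array was above every negative one. The change was 0.84 ± 0.39 (limma, adjusted p = 0.56), and with the replicate block of the conventional pairs, which leaves the Math1-GFP arrays unpaired but narrows the shared spread, the adjusted p was 0.021. That fit called 1.56% of all genes. With the block on the numbered pairs alone the adjusted p was 0.029, and 1.40% of all genes were called. Of 8 astrocyte markers, none was called in these tumours or in conventional ones, and their median changes were 1.06 and 0.29. Their part in the Cdh22 values was not tested.

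The difference between the models in the CD15 change was tested directly. No member was called, none of the 34 had an unadjusted p under 0.05, and limma called 0% of all genes. For Pcdhb7 the CD15 change differed between the models by 0.56 ± 0.31 and for alpha set 1420798_s_at by 1.01 ± 0.43 (adjusted p = 1.00 in each case). Calls in the conventional groups alone therefore do not show that the models differ.

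Averaged over both models, 6 members were lower in CD15 positive cells and none was called higher, against 5.97% of all genes called lower, 3.77% higher and 9.74% in either direction. Pcdh8 fell by 0.70 ± 0.15 (adjusted p = 0.0050) and Pcdhb7 by 0.65 ± 0.16 (adjusted p = 0.0098), and both calls were kept on leaving out any single array. Pcdhb17 (-0.62 ± 0.18, adjusted p = 0.031), Pcdhb20 (-0.43 ± 0.13, adjusted p = 0.033), Pcdhb3 (-0.47 ± 0.14, adjusted p = 0.034) and Pcdhb16 (-0.55 ± 0.16, adjusted p = 0.035) were also lower. The other probe set of Pcdhb16 gave -0.50 ± 0.10 (adjusted p = 0.0040). In the average, 15 of 15 beta cluster genes tested had a negative change, against 6232 of all 12367 genes. Without the filter 20 of 22 were negative. The 4 other calls each depended on single arrays. The count of members fell to 2 without CD15 negative conventional array 5, Math1-GFP array 7 or Math1-GFP array 10, and to 3 without Math1-GFP array 2 or 5. Pcdhb20 also lost its call after quantile normalization (adjusted p = 0.063), and Pcdhb16 (adjusted p = 0.063) and Pcdhb17 (adjusted p = 0.065) lost theirs without Math1-GFP arrays 1 and 2 together.

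With the replicate block, 10 members were called in the average, against 17.3% of all genes. Cdh2 (-0.26 ± 0.09, with the block adjusted p = 0.044) and Pcdh10 (-0.47 ± 0.18, with the block 0.039) joined the lower members. Cdh22 (0.58 ± 0.26, with the block 0.0021) and Pcdh18 (0.40 ± 0.27, with the block 0.036) were called higher. With the block on the numbered pairs alone, 8 members were called, against 14.2% of all genes: the 6 called without a block, Pcdhb21 (adjusted p = 0.026) and Cdh22 (0.0055). Cdh2 (0.062), Pcdh10 (0.082) and Pcdh18 (0.075) missed the threshold in that fit. Of the alpha sets, 1420798_s_at (-0.83 ± 0.22, adjusted p = 0.020) and 1451769_s_at (-0.54 ± 0.15, adjusted p = 0.031) were lower in the average without the block, where 4.86% of probe sets were. The second of these lost its call on leaving out any one of 4 arrays: CD15 positive conventional 2 or Math1-GFP 2, 7 or 9 (adjusted p = 0.053 to 0.066). Set 1424341_s_at (-0.49 ± 0.17) missed the threshold in the average (limma, adjusted p = 0.088) and was called lower with the block (adjusted p = 0.0046).

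**Figure D4:**
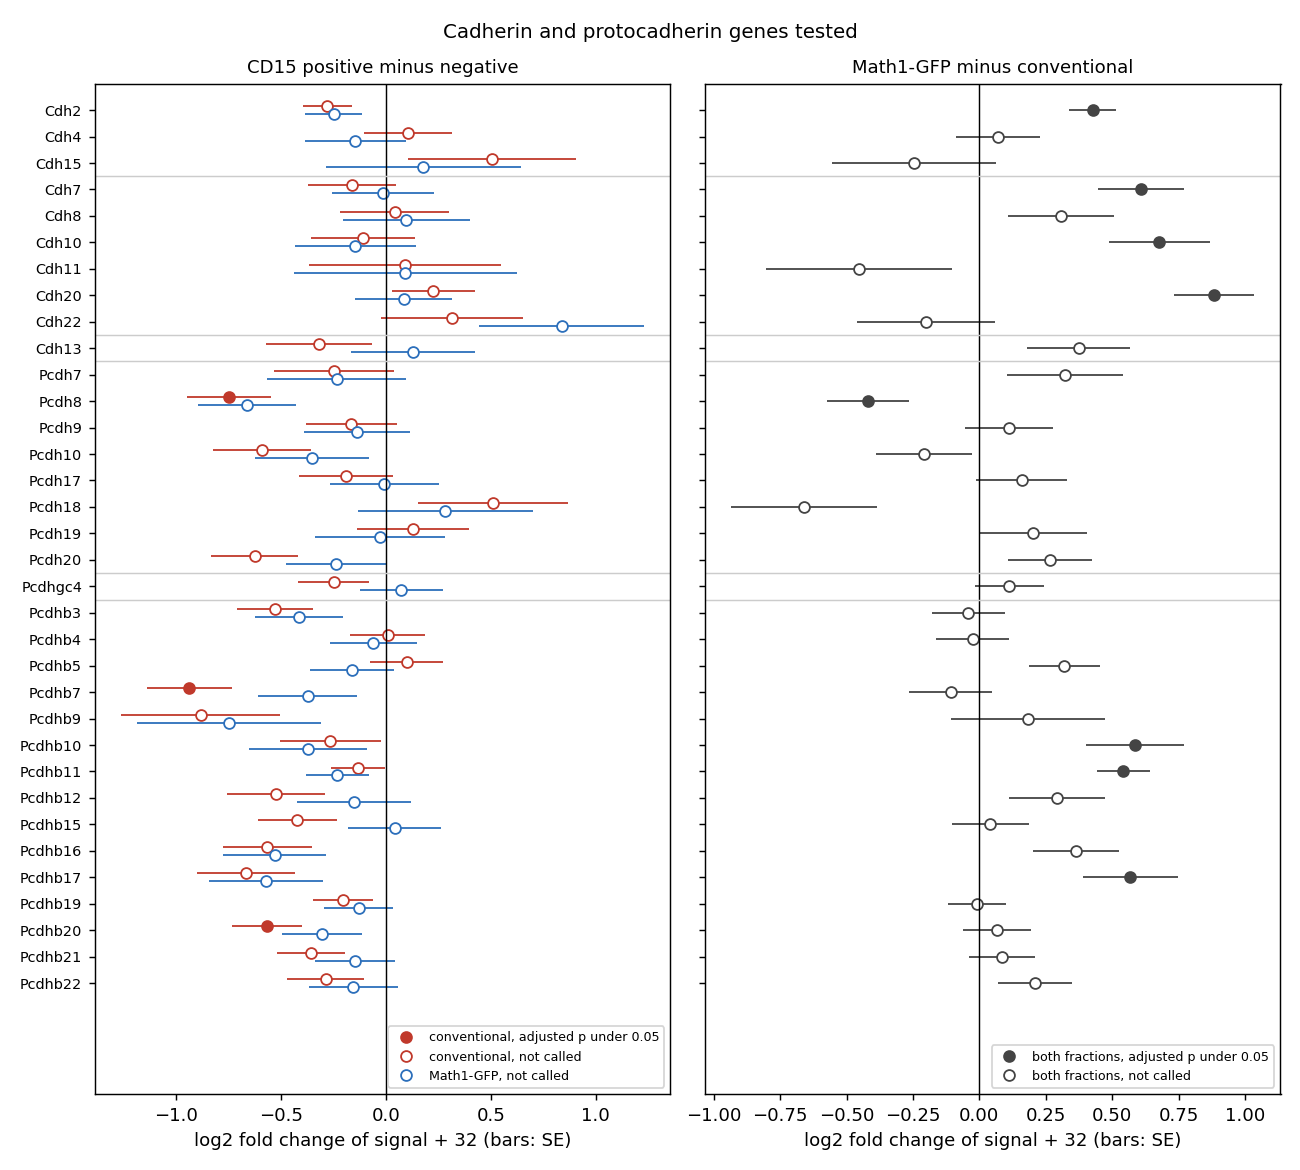
Log2 fold changes of signal + 32 (points) with SE (bars) of the 34 genes tested, grouped by class from type I cadherins at the top to the beta cluster at the bottom. The left panel gives CD15 positive minus negative in conventional and Math1-GFP tumours and the right panel Math1-GFP minus conventional; filled points passed an adjusted p of 0.05. Pcdh8, Pcdhb7 and Pcdhb20 are filled on the left, and 8 genes are filled on the right, with Cdh20 farthest to the right at 0.88.

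Pcdh8, whose 2 probe sets were lower in the CD15 positive fraction, was the only non-clustered protocadherin called in the CD15 comparisons of the main fit. Its promoter is shown for that reason. The window runs from 250 bases before to 50 after the gene start (RefSeq, GRCm38.p6, chr14:79771263-79771562, minus strand). Both strands were searched for 4 motifs that fit this tumour: GACCACCCA, the binding motif of the Hedgehog effectors of the GLI family, and 3 E-boxes. The E-boxes CAGCTG and, as a second form, CAGATG are bound by basic helix-loop-helix factors. The E-box CACCTG is also bound by repressor zinc finger factors. None is in this window, so no letters are in capitals.
Pcdh8: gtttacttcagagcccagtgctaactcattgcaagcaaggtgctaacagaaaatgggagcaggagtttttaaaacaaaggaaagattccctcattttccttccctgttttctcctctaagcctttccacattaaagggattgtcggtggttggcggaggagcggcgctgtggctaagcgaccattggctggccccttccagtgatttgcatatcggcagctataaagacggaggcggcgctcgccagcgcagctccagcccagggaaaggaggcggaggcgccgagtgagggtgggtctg

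The windows of 14 of the 34 tested genes were in the promoter table, 17 windows in all. The GLI motif was in 0 of these 17, against 0.253% of all 32851 windows of this length. CAGCTG was in 0 of 17 (16.3% of all), CAGATG in 1 of 17, of Cdh7 (17.2% of all), and CACCTG in 4 of 17, of Cdh7 and Pcdh7 (20.2% of all). The matches describe letters in these windows and no binding.

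Between the models, over both CD15 fractions, 7 members were higher and 1 lower in Math1-GFP than in conventional tumours. Since 39.2% of all genes were called, 18.7% higher and 20.5% lower, 8 of 34 is no larger than the background and says nothing particular of cadherins. Scaling matters here: 47.7% of calls were higher in Math1-GFP as deposited and 37.0% after quantile normalization, which moved the median of all genes from -0.01 to -0.07. The models also differed in other cell types. Of 8 microglia and macrophage markers tested, 7 were called lower in Math1-GFP tumours, as were 3 of 9 mural and fibroblast markers, while 2 of 6 oligodendrocyte lineage and 3 of 9 granule lineage markers were called higher. The part of these in the cadherin values was not tested, and model and any difference in handling cannot be told apart. This comparison counts the fractions of a conventional pair as separate arrays, although their deviations correlated. Its p-values are therefore likely too small, for members and for all genes.

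Cdh20, a type II cadherin of the embryonic neural tube, had the smallest adjusted p of the members when each gene is read by its brightest probe set. It measured 114.3 to 433.4 in the 12 conventional arrays. In the Math1-GFP arrays it was 573, 664, 534 and 640.0 in CD15 positive and 526, 546, 548, 492 and 736 in CD15 negative cells. No Math1-GFP array was as low as the highest conventional one, and the change was 0.88 ± 0.15 (limma, adjusted p = 1.3e-04). The CD15 fractions did not separate it in either model (0.23 ± 0.20 and 0.09 ± 0.23).

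Cdh7, its type II relative on the same chromosome, was at 0.798 to 62.1 in conventional arrays. It measured 31.9, 55.9, 35.3 and 33.3 in CD15 positive and 48.1, 28.5, 57.4, 38.3 and 27.7 in CD15 negative Math1-GFP arrays. One conventional array lay above them all, and the change was 0.61 ± 0.16 (adjusted p = 0.0055). Cdh10, another type II cadherin of the brain, was at 1.19 to 45.2 in conventional arrays, at 99.2, 38.6, 15.7 and 25.6 in CD15 positive and at 93.4, 28.6, 44.3, 21.8 and 63.9 in CD15 negative Math1-GFP arrays. The models overlapped, and the change was 0.68 ± 0.19 (adjusted p = 0.0081). A second probe set of Cdh10 gave 0.25 ± 0.09 (adjusted p = 0.024), and a second one of Cdh7 gave 0.26 ± 0.17 (adjusted p = 0.22).

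Cdh20 and Cdh7 both lie on chromosome 1 and were higher in Math1-GFP tumours by their brightest probe sets, so their promoters are shown together. The windows (RefSeq, GRCm38.p6, plus strand) are chr1:104768270-104768569 for Cdh20 and chr1:109983473-109983772 for Cdh7. The latter is the one of 3 Cdh7 windows that holds 2 of the motifs. Capitals mark E-boxes. The letters CATCTG are the E-box CAGATG as read on the other strand. Likewise, CAGGTG stands for the E-box CACCTG on the other strand. The Cdh20 window holds none of the 4 motifs.
Cdh20: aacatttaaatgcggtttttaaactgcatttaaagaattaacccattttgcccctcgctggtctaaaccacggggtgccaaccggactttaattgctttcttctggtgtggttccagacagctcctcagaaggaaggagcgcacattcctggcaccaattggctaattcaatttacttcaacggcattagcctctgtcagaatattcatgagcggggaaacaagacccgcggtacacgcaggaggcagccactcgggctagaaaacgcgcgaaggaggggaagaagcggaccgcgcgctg
Cdh7: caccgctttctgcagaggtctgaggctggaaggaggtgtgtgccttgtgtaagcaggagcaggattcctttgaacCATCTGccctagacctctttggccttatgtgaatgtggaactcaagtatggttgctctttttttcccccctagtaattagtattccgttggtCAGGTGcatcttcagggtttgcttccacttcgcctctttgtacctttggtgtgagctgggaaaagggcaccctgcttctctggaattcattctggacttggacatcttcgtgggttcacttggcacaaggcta

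N-cadherin (Cdh2) was higher in Math1-GFP tumours by 0.43 ± 0.09 (adjusted p = 8.3e-04). It measured 607 to 1189 in conventional arrays, 1316, 1026, 1153 and 997 in CD15 positive and 1684, 1317, 1213, 1227 and 1268 in CD15 negative Math1-GFP arrays. All 5 CD15 negative Math1-GFP arrays were above every conventional one. Its second probe set gave 0.81 ± 0.10 (adjusted p = 1.3e-06). Cdh15 (84.2, 53.6, 140.6, 49.97 and 35.8 in CD15 negative and 101.1, 176.1, 51.5 and 36.3 in CD15 positive Math1-GFP arrays) and Cdh4 (-0.25 ± 0.31 and 0.07 ± 0.16) were not called.

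In the beta cluster, Pcdhb11 (0.54 ± 0.10, adjusted p = 2.3e-04), Pcdhb10 (0.59 ± 0.19, adjusted p = 0.017) and Pcdhb17 (0.57 ± 0.18, adjusted p = 0.017) were higher in Math1-GFP tumours. Pcdhb11 was at 5.36 to 21.2 in conventional arrays, at 20.4, 25.6, 47.9 and 29.0 in CD15 positive and at 28.7, 56.9, 24.3, 59.9 and 40.5 in CD15 negative Math1-GFP arrays. The models met only at the edge. The Math1-GFP levels ran from below the array medians of 24.6 to 31.3 in those groups to above them. Pcdhb10 ran from 7.07 to 77.4 against 36.2 to 143.7 and lost its call after quantile normalization (adjusted p = 0.052). None of the 3 genes that led the CD15 difference in conventional tumours was higher: Pcdhb7 showed -0.11 ± 0.16 and Pcdhb20 0.07 ± 0.13.

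Pcdh8 was the one member lower in Math1-GFP tumours (-0.42 ± 0.15, adjusted p = 0.035), at 39.7 to 159.2 in conventional and 17.5 to 124.3 in Math1-GFP arrays. The second probe set gave -0.55 ± 0.17 (adjusted p = 0.013), where 16.5% of all probe sets were lower. The call of the first was lost on leaving out any one of 9 arrays: CD15 negative conventional unnumbered, 2 or 4, CD15 positive conventional unnumbered, 3 or 4, or Math1-GFP 5, 7 or 8 (adjusted p = 0.050 to 0.099). Pcdh18 showed -0.66 ± 0.27 (adjusted p = 0.061, and 0.020 after quantile normalization) with one probe set and 0.55 ± 0.13 (adjusted p = 0.0013) with another, so that it has no settled direction. One Pcdh9 probe set was also called higher (0.43 ± 0.12, adjusted p = 0.0081), while the brightest gave 0.11 ± 0.17 and the third -0.37 ± 0.20. Of alpha sets, 1424341_s_at was higher by 0.93 ± 0.17 (adjusted p = 1.8e-04), where 26.5% of all probe sets were. It measured 18.9 to 185.4 in conventional arrays, 165.2, 172.6, 163.3 and 121.7 in CD15 positive and 291.3, 167.2, 166.1, 183.3 and 170.8 in CD15 negative Math1-GFP arrays. Set 1420798_s_at (0.56 ± 0.22, adjusted p = 0.039) lost its call after quantile normalization (adjusted p = 0.091), with the array set as a block (adjusted p = 0.058) and on leaving out any one of 14 arrays (adjusted p = 0.050 to 0.081), and 1451769_s_at gave 0.29 ± 0.15 (adjusted p = 0.13).

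**Figure D5:**
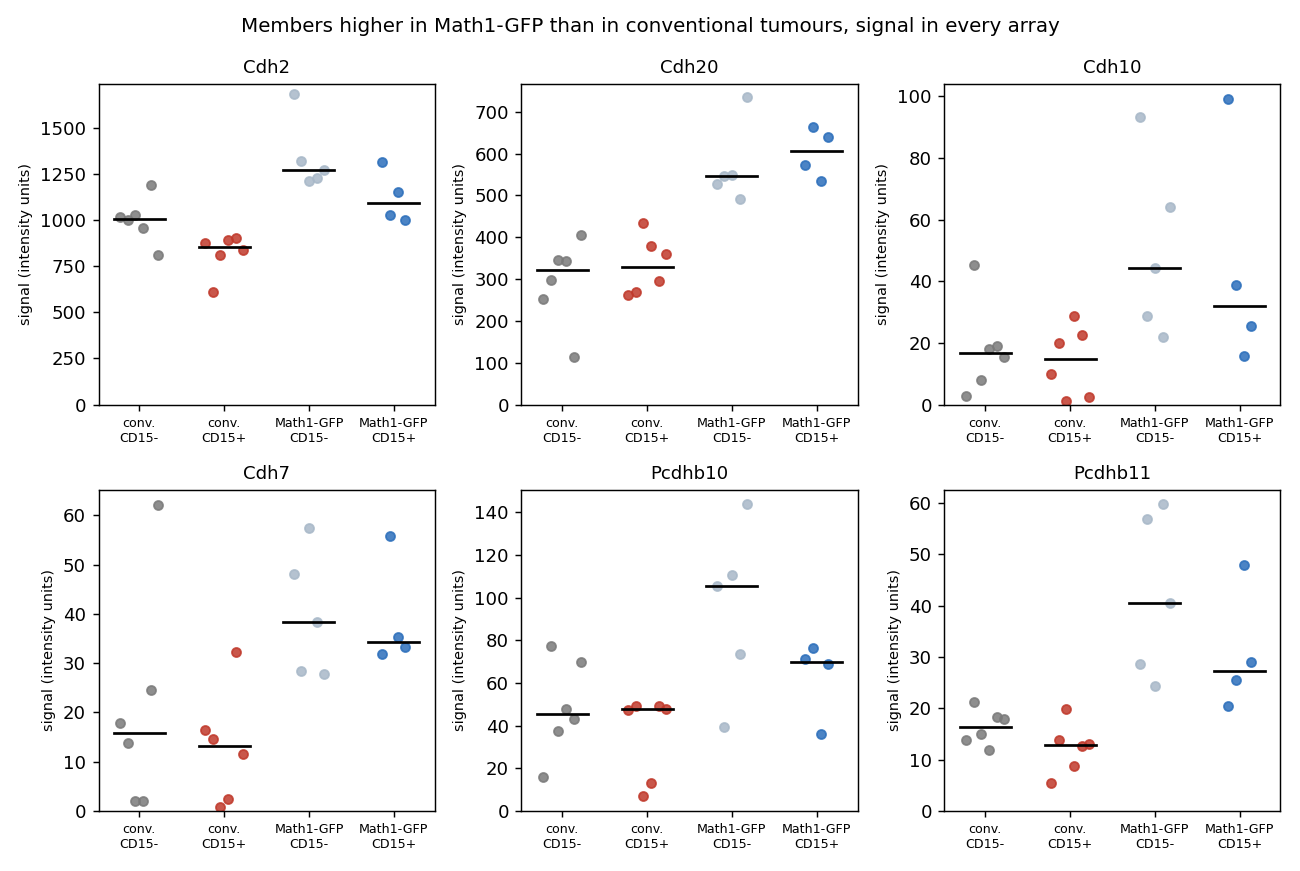
Deposited signal (intensity units, linear axis from 0) of 6 members that were higher in Math1-GFP than in conventional tumours; each point is an array and each bar a group median. In Cdh20 the 9 Math1-GFP arrays lie at 492 to 736, all above the conventional arrays at 114.3 to 433.4, while the models overlap in the other 5 genes.

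The partners of the cadherins were followed through lists of named genes. Of 17 catenins and junction adaptors tested, 1 was called between conventional fractions: delta-catenin (Ctnnd2), the neural relative of p120 catenin, which was lower in CD15 positive cells (-0.72 ± 0.19, adjusted p = 0.018). The median of the list was -0.09, and 8.13% of all genes were called in either direction. In the average over models beta-catenin (Ctnnb1) was higher by 0.32 ± 0.08 (adjusted p = 0.016) and Pkp4 by 0.34 ± 0.10 (adjusted p = 0.029), while Ctnnd2 was lower. Between models, 5 were higher and 3 lower in Math1-GFP tumours, where 39.2% of all genes were called. Ctnnd2 (0.75 ± 0.14) and afadin (Afdn, 0.91 ± 0.18) were among the higher and the beta-catenin inhibitor Ctnnbip1 (-0.55 ± 0.12) among the lower, and the neural alpha-catenin Ctnna2 was higher by 1.27 ± 0.38 (adjusted p = 0.013).

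Of 14 more distant members of the cadherin superfamily tested, 4 were lower in conventional CD15 positive cells and none was called higher, with a list median of -0.40, where 5.09% of all genes were called lower and 3.05% higher. These were Dchs1, the large cadherin that pairs with Fat4 in planar polarity (-0.50 ± 0.12, adjusted p = 0.014), the seven-pass cadherins Celsr2 (-0.48 ± 0.12, adjusted p = 0.019) and Celsr3 (-0.66 ± 0.18, adjusted p = 0.024), which guide axons, and the synaptic calsyntenin Clstn3 (-0.59 ± 0.16, adjusted p = 0.025). The same 4 were called in the average, where 5.97% of all genes were lower, together with Fat2, a cadherin of cerebellar granule cells (-0.83 ± 0.23, adjusted p = 0.025). In conventional tumours, neuronal markers moved with them as stated above.

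Some delta protocadherins act on the cytoskeleton through the WAVE complex. Of its 8 genes tested, 1 was called in conventional tumours, where 8.13% of all genes were called in either direction. This was Cyfip2, lower in CD15 positive cells (-1.28 ± 0.18, limma, adjusted p = 2.5e-04), and the list median was -0.13. Cyfip2 was also lower in the average (-0.88 ± 0.14, adjusted p = 3.2e-04). Between the models, Abi1 (0.47 ± 0.06, adjusted p = 1.1e-05), Wasf3 (1.09 ± 0.15, adjusted p = 1.4e-05) and Abi2 (0.41 ± 0.09, adjusted p = 0.0016) were higher in Math1-GFP tumours. Of 10 regulators of the protocadherin clusters, such as the insulator protein Ctcf and the cohesin subunit Rad21, none was called between CD15 fractions in any comparison, and the medians were 0.10 in conventional and 0.11 in Math1-GFP tumours. Between the models 7 of the 10 were higher in Math1-GFP, where 18.7% of all genes were, among them Wapl (0.44 ± 0.09, adjusted p = 8.5e-04), Setdb1 (0.33 ± 0.08, adjusted p = 0.0019), Rad21 (0.52 ± 0.13, adjusted p = 0.0032) and Ctcf (0.31 ± 0.09, adjusted p = 0.0073). Of 5 tested transcription factors known as repressors of classical cadherins, none was called in any comparison. Of 7 genes of cadherin cleavage, none was called between CD15 fractions. Between models the gamma-secretase subunits Ncstn (0.86 ± 0.08, adjusted p = 6.6e-08) and Psenen (-0.53 ± 0.07, adjusted p = 5.4e-06) moved in opposite directions. Of all genes, 8.13% were called between conventional fractions, 0.0404% between Math1-GFP fractions, 9.74% in the average and 39.2% between models. In lists this short, an absence of calls between CD15 fractions therefore says little.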

How the data were processed

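RNA of sorted mouse medulloblastoma cells was hybridised to 21 Affymetrix mouse arrays of 45101 probe sets. The deposited table holds linear intensities, one per probe set. Which software the authors used, and how they scaled, was not given in the sources at hand. Each array was found to have a mean of 150.0 after 2% of values at each end are removed. The intensities were used as log2(signal + 32). The 64 control probe sets and those with a mean below the 40th percentile (signal 15.5) were left out, and the brightest probe set stood for a gene. Symbols came from the platform annotation, which lists 1 symbol for 34958 probe sets, several for 932 and none for 9211. A model of 4 group means, which leaves 17 residual degrees of freedom, was fitted in limma (version 3.58.1, R version 4.3.3) with eBayes, Benjamini-Hochberg adjustment over 12367 genes and a two-sided threshold of 0.05, in 5 contrasts; SEs come from that fit. The code was tested on simulated data.

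Deviations of same-numbered conventional arrays from their group means correlated at 0.583 to 0.757, those of the unnumbered pair at 0.72 and other pairs at most at 0.477; 6 of 6 positive arrays were closest to their own number, so the numbers were taken to pair samples. The unnumbered arrays were paired on this correlation and not on a label. The lists and members were chosen with earlier results of these data known. Named genes are members called in any contrast, 16 members fixed by name, and in each partner list the 4 called genes of smallest p. Alternatives were quantile normalization, pseudocounts of 1 and 128, other filters, other probe set summaries, array weights, a trended and robust eBayes, blocks, fits of subsets and leaving out arrays.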

Additional observations from a re-analysis of the deposited data

Results flagged for a closer look

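Each group of 4 to 6 arrays was tested for a highest or lowest array far from the others, for every tested member and the alpha cluster probe sets. Of 148 such groups 12 held one, and chance alone would give about 7.4. Values are log2(signal + 32). In conventional tumours, the CD15 positive array 2 was low for Cdh2 at 9.32, with the next at 9.72. The CD15 negative array 6 was high for Pcdhb4 at 6.28 (next 5.57), and CD15 negative array 5 was high for alpha set 1451769_s_at at 7.42 (next 6.22).

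Of the other flags, 4 were of the Math1-GFP CD15 negative array 2, which was high for Cdh2 at 10.74 (next 10.40), Pcdhb15 at 6.62 (next 5.87), Pcdhb19 at 6.38 (next 5.85) and alpha set 1424341_s_at at 8.34 (next 7.75). The Math1-GFP CD15 negative array 10 was high for Cdh20 at 9.59 (next 9.18) and Pcdh20 at 7.49 (next 6.30). Among Math1-GFP CD15 positive arrays, number 5 was high for Cdh7 at 6.46 (next 6.07), number 7 was low for Pcdhb10 at 6.09 (next 6.65) and number 9 was low for alpha set 1424341_s_at at 7.26 (next 7.61). Their causes were not tested.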

How the results depend on the processing

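No called difference changed direction under the alternatives run; differences that were not called could. Members called in conventional tumours numbered 3 as reported, 7 with the replicate block, 15 (27.4% of all genes) with a replicate block that also joins consecutive Math1-GFP numbers, a pairing the labels do not state, 7 (11.1% of all genes) with the array set as a block and 0 within the unnumbered and number 6 arrays (8 at an unadjusted p under 0.05 in limma). With the unnumbered arrays left out of the replicate block, an alternative chosen after seeing the data, the counts were 4 in conventional tumours, 1 in Math1-GFP tumours and 8 in the average. In Math1-GFP tumours the counts were 0 as reported, 1 with the replicate block and 6 (7.28% of all genes) with the consecutive numbers joined. In the average they were 6, 10 and 15 (31.5% of all genes). No replicate block was fitted for the difference between models, which lies between pairs. Paired fractions count there as separate arrays although their deviations correlated, so its p-values are likely too small. There the count was 8 as reported and 5 with a filter at the 60th percentile, which left 17 members tested. Leaving out 1 array gave 1 to 5 members in conventional tumours (1 without CD15 negative array 2), 2 to 8 in the average, 7 to 10 between models and 0 in the other comparisons. Over the 23 called differences of single genes and alpha sets, 631 values under alternatives kept direction and call and 88 kept direction but lost the call; differences gained by a setting are not in these counts. Probe sets near the array median limit what can be said of dim members.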
